A study of Mus musculus with 6 samples.

Results

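The genes described here carry glucose from the blood to pyruvate, lactate or pentose phosphates: glucose and lactate transporters, the glycolytic enzymes with the kinases that set their pace, the pentose phosphate enzymes, and the pyruvate dehydrogenase kinases. They were taken from a list of 35 gene symbols, and all 35 were found among the 37620 genes of the deposited count tables. Their RNA was measured in burst-forming unit erythroid cells (BFU-E), the earliest progenitors committed to the red cell line, from fetal livers of 129/SvImJ mice at E14.5. Per the labels the cells were depleted of lineage-positive, Sca-1, CD16/32, CD41 and CD34 cells and sorted as c-kit positive cells with the 10% lowest CD71. One group was untreated. The second received 100 nM dexamethasone (Dex), a synthetic glucocorticoid, and the third received 100 nM Dex with 10 µM GW7647, which activates the nuclear receptor PPARα. The medium was serum-free, with erythropoietin at 2 U/mL, IGF-1 at 40 ng/mL and stem cell factor (SCF) at 100 ng/mL. Each group had 2 polyA RNA libraries, and no group received GW7647 alone. The labels state 12 h of treatment, whereas column headers of 1 deposited table carry 36 h, and they leave unclear whether untreated cells were cultured. How many embryos were pooled for a library is not given in the sources used here.

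Glucose enters a cell through facilitative transporters and is trapped by hexokinase. Phosphofructokinase then commits the sugar to glycolysis, under the control of fructose 2,6-bisphosphate, which the PFKFB enzymes make and break down. Lower glycolysis yields ATP and pyruvate, which is either reduced to lactate and exported or burned in mitochondria when pyruvate dehydrogenase is not held off by its kinases. Mature red cells lack mitochondria and depend on this pathway for ATP. They divert part of the flow through bisphosphoglycerate mutase to make 2,3-bisphosphoglycerate, the metabolite that lowers the oxygen affinity of hemoglobin, and they use the pentose phosphate branch to make NADPH against oxidative damage.

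The libraries held 35970286 to 54174801 counts each, so counting error was small for the abundant enzymes. Values below are normalized counts unless another scale is named: the count divided by the library's effective size from the trimmed mean of M values (TMM) and brought to the average library. A gene is called higher or lower when the Benjamini-Hochberg adjusted p of edgeR's quasi-likelihood test, fitted to all 6 libraries and adjusted over 14125 genes, was under 0.05. Differences are on the log2 scale with their standard error (SE). Of the 35 genes, 34 passed the filter on low counts. Pdk4, a kinase that holds back pyruvate dehydrogenase and is known as a PPAR and glucocorticoid target in other tissues, did not, with 2 to 9 raw counts per library. The labels do not say whether the libraries of a group came from separate cultures, so p-values measure the spread between these libraries, which may be technical. With 2 libraries against 2, an exact permutation test could not go below p = 0.333. Several of these genes have many near-identical copies elsewhere in the genome, and how the counting treated them is not given in the sources used here. In the GENCODE M21 transcripts, 90.4% of the 50-base windows of Gapdh also occurred in other genes, 72.2% of those of Eno1, 68.0% of those of Pgk1, 63.5% of those of Pfkfb2, 41.5% of those of Pgam1, 34.4% of those of Pkm, 27.0% of those of Ldhb and 25.3% of those of Gpi1, so the counts of these 8 genes are uncertain. For 17 other genes no window was shared.

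Promoters are shown for 4 of the genes that moved by more than 1.5-fold with Dex, 2 that rose (Pgam1 and Pfkfb4) and 2 that fell (Slc2a1 and Bpgm), chosen after their values were seen. The sequences are the 250 bases before the RefSeq start on the plus strand of build GRCm38.p6, at chr19:41911621-41911870 for Pgam1, chr9:108991652-108991901 for Pfkfb4, chr4:119108495-119108744 for Slc2a1 and chr6:34476106-34476355 for Bpgm. Capitals mark ACGTG or GCGTG on either strand, the core letters of the hypoxia response element that is a textbook feature of glycolytic promoters.
Pgam1: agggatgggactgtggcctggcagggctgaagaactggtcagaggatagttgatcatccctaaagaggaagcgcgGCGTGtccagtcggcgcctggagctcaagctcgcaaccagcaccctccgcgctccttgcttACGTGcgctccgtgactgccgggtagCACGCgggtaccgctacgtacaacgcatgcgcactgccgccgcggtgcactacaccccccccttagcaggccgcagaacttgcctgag
Pfkfb4: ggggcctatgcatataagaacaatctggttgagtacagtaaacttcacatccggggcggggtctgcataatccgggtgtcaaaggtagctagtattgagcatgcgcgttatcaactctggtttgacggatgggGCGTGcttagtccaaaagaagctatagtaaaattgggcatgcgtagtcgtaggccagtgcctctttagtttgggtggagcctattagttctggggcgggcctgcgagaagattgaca
Slc2a1: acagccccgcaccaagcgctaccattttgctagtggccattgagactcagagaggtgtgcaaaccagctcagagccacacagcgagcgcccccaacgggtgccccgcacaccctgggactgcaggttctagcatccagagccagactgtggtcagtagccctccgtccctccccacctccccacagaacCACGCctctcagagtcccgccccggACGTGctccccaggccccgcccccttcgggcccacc
Bpgm: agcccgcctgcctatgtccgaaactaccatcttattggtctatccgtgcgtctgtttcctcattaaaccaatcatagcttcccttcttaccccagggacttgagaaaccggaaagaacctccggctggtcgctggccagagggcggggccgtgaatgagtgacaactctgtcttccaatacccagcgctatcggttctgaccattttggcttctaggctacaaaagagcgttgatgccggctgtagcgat
The core letters occurred 3 times in the Pgam1 window, once in that of Pfkfb4, 2 times in that of Slc2a1 and 0 times in that of Bpgm. RefSeq windows were matched by symbol for 34 of the 35 genes, all but Slc2a3, with 55 windows in total. Over the longer window of 300 bases, which adds 50 bases after the start, the hypoxia core occurred in 72.7% of the 55 windows, belonging to 30 of the 34 genes, and in 43.8% of all 32851 windows. The palindromic E-box CACGTG, which overlaps ACGTG, occurred in 10.9% of the glucose gene windows and 7.15% of all windows. For ACANNNTGT, the core letters of a glucocorticoid response element, the shares were 1.82% and 6.85%. For the GATA letters AGATAA or TGATAA they were 23.6% and 18.6%, and for CACCC, the letters read by KLF-type factors, 67.3% and 57.5%. The windows differed in base composition as well, with 58.2% ± 8.68 G and C (SD over 55 windows) against 53.2% ± 11.6 (SD over all windows), and its part in the motif shares was not tested. These matches are letters in a window and are not evidence of binding.

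In Dex cells much of the glycolytic chain stood slightly higher than in untreated cells and a few of its genes far higher, while the main glucose transporter, 3 of the 4 PFKFB genes and the bisphosphoglycerate shunt stood lower. Called higher were 15 of the 34 genes tested and called lower 9, and 10 were not called. This is 70.6% called, where 51.6% of all tested genes were called, 25.5% higher and 26% lower. At 1.5-fold or more, 5 rose (Hk1, Pfkp, Aldoc, Pgam1 and Pfkfb4) and 5 fell (Slc2a1, Bpgm, Pfkfb3, Pdk2 and Ldhb). The median log2 difference of the 34 genes was 0.11, beside 0.01 over all genes tested. Both Dex libraries were above both untreated ones for 17 of the 35 genes and below for 9. The share of all genes separated in this way was not computed, so these counts have no background to be read against. Scaling by total counts in place of TMM raised the median over all genes to 0.14, and the split among the glucose genes then became 20 higher and 7 lower, beside 5451 higher and 2584 lower over all genes. Summed over the 35 genes, the normalized counts were 436300 and 448600 in the untreated, 468700 and 451500 in the Dex, and 443800 and 450400 in the Dex plus GW7647 libraries. Both Dex sums were above both untreated ones, by far less than the changes of single genes, and the ranges of Dex plus GW7647 and untreated overlapped.

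The Dex comparison coincided with a fall in markers of maturing red cells. All 11 measured markers of that list (among them the globins, Alas2, Slc4a1 and Hemgn) were called lower, and their summed normalized counts were 3338000 and 3651000 in the untreated libraries, 1467000 and 1418000 with Dex, and 1360000 and 1345000 with both drugs. The globin share of all counts went from 6.48% and 7.15% to 3.12% and 2.96%, and to 2.82% and 2.75%. Progenitor genes summed to 65450 to 70260 in every library, but single genes moved both ways. Of the 6, 2 were called higher and 2 lower with Dex (median log2 difference -0.07). Kit, the stem cell factor receptor, was at 4291 in untreated and 12660 in Dex cells on average (log2 difference 1.56). Tal1 went from 22600 and 22650 in the untreated to 15200 and 14890 in the Dex libraries. Summed megakaryocyte genes were at 37520 and 39820, then 20160 and 18180, then 13280 and 13070, and granulocyte genes at 12400 and 13550, then 5771 and 5379, then 3455 and 3525. Mast cell and basophil genes summed to 6163 and 6177, 10110 and 9757, and 5747 and 5642. The higher sum with Dex came from Hdc (1749 in untreated and 8683 in Dex cells on average), while 5 of the 7 tested genes of that list were called lower (median log2 difference -2.01). The sums were 497.6 and 536.5, 376.5 and 402.2, and 307.8 and 314.2 for monocyte and macrophage genes, and 739.6 and 752.8, 290.1 and 330, and 190.4 and 190.1 for endothelial and stromal genes. Hepatoblast genes summed to 74.57 and 58.97, 283.9 and 276.6, and 195.9 and 196.1, and 3 of the 4 tested were called higher with Dex, with log2 differences of 4.42 for Apoa1, 1.72 for Afp and 1.21 for Hnf4a. Lymphoid genes summed to 41.57 and 43.94, 23.15 and 24.38, and 19.86 and 16.53, and the macrophage marker C1qa was at 0 in all libraries. The part of these shifts in the results on glucose genes was not tested, and in such bulk samples fewer cells of a type and less RNA per cell cannot be told apart.

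**Figure D1:**
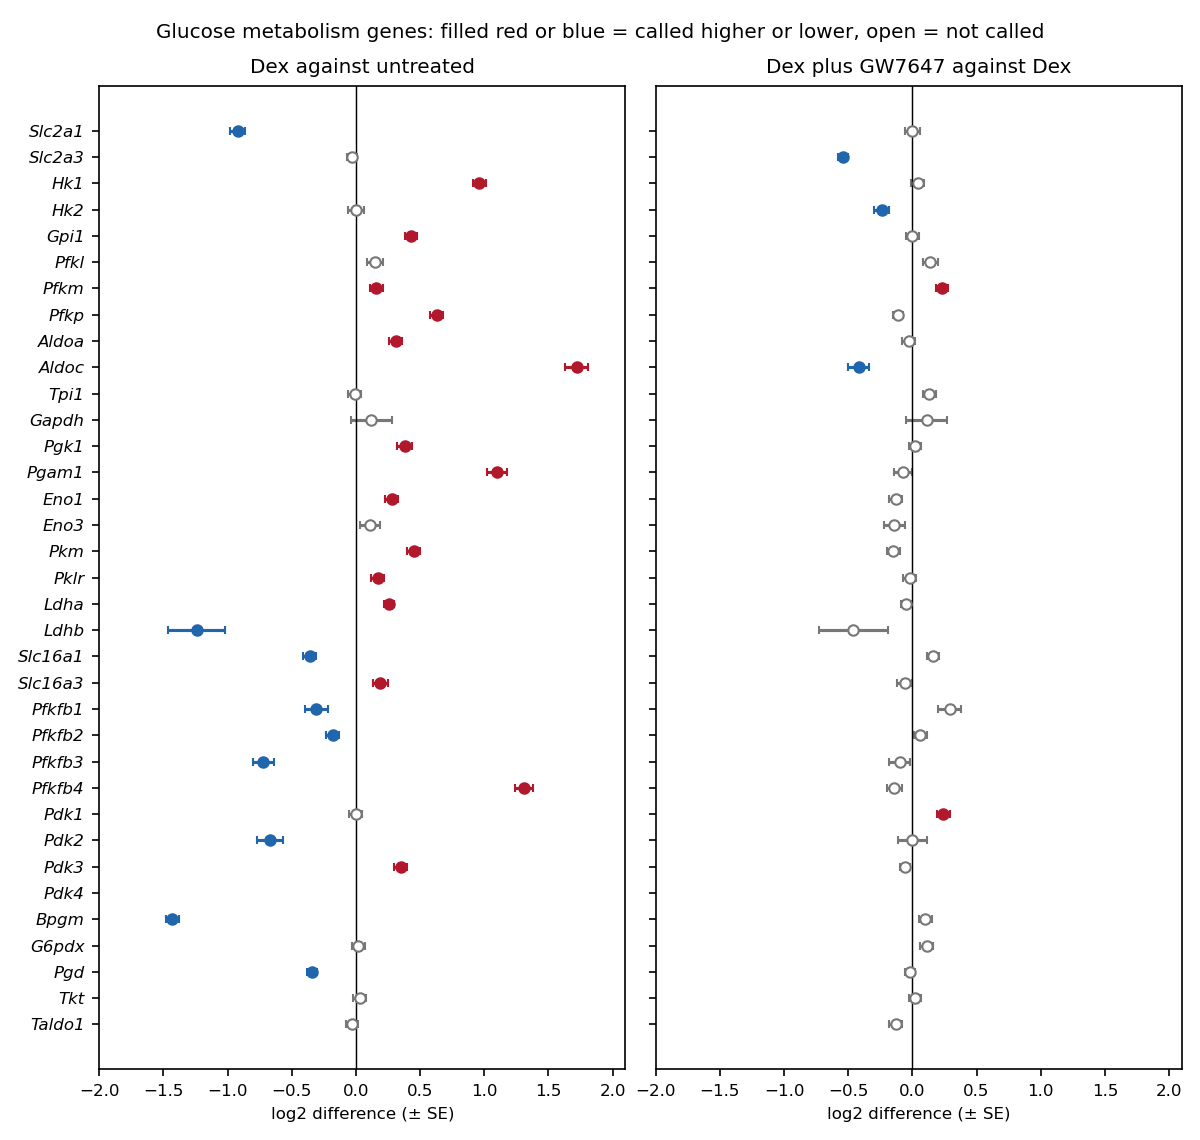
Log2 difference (x axis, with SE) of each of the 35 genes for Dex against untreated (left) and Dex plus GW7647 against Dex (right); filled red points were called higher, filled blue points lower, and open points were not called. Aldoc, Pfkfb4, Pgam1 and Hk1 lie furthest to the right on the left side and Bpgm furthest to the left, whereas on the right side Slc2a3 at -0.54 has the largest called difference; Pdk4 was not tested.

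RNA of the major glucose transporter was lower with Dex. Slc2a1 encodes GLUT1, a glucose carrier of most tissues that is abundant in red cell precursors, and had 63020 and 68540 normalized counts in the untreated libraries, 36120 and 33380 with Dex, and 34370 and 35140 with both drugs. Both untreated libraries lay far above the other 4, and the Dex difference was -0.92 ± 0.06 (0.528 times, adjusted p = 6.86e-07). Slc2a3, the high-affinity neuronal-type carrier GLUT3, had 22300 and 22560 in untreated and 21640 and 22440 in Dex cells, ranges that overlapped (-0.03 ± 0.04, adjusted p = 0.651). With both drugs it stood at 15090 and 15120, below every other library.

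At the first phosphorylation step the change was at Hk1, the housekeeping hexokinase, whose transcript forms these gene-level counts do not separate. Its counts were 22780 and 22330 in the untreated, 45300 and 42540 in the Dex and 44640 and 45490 in the Dex plus GW7647 libraries. All 4 treated libraries were near double the untreated level, with a Dex difference of 0.96 ± 0.05 (1.95-fold, adjusted p = 1.55e-07). Hk2, the inducible hexokinase of muscle and tumors, was at 1575 and 1635, then 1667 and 1551, then 1362 and 1361, so that untreated and Dex ranges overlapped (0.00 ± 0.06, adjusted p = 0.957). Gpi1, glucose phosphate isomerase, averaged 13210 ± 639 (SD, n = 2) in untreated and 17790 ± 472 in Dex cells, a log2 difference of 0.43 ± 0.05 (adjusted p = 5.75e-05).

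The 3 phosphofructokinases all stood higher in both Dex libraries, and the platelet-type gene moved furthest. Pfkp had 2738 and 2736 in untreated and 4276 and 4203 in Dex libraries, then 3879 and 3982 with both drugs (Dex difference 0.63 ± 0.05, 1.55-fold, adjusted p = 2.08e-06). Both treated groups were above the untreated one without overlap. The muscle-type Pfkm had 3808 and 3854, then 4483 and 4070, then 4993 and 5019 (Dex difference 0.16 ± 0.05, adjusted p = 0.0337), and it was called in 7 of 14 other fits (adjusted p from 0.00169 to 0.19). The liver-type Pfkl, with 3891 and 4092, then 4670 and 4162, then 4820 and 4885, was not called with Dex (0.15 ± 0.06, adjusted p = 0.0692).

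The regulators of that step moved in opposite directions. Pfkfb4, an isoenzyme known as a hypoxia target, had 402.2 and 389.7 in untreated, 1000 and 957.3 in Dex, and 871.9 and 910.6 in Dex plus GW7647 libraries (Dex difference 1.31 ± 0.07, 2.47-fold, adjusted p = 2.67e-07). Pfkfb3, whose enzyme has the strongest kinase activity of the family and so favors glycolysis, had 789.8 and 809.4, then 476.1 and 496, then 430.5 and 478.3 (Dex difference -0.72 ± 0.08, adjusted p = 3.28e-05). For both genes the untreated pair stood clear of all 4 treated libraries, below them for Pfkfb4 and above them for Pfkfb3. Pfkfb2, the heart-type gene, had 3104 and 2995, then 2677 and 2723, then 2734 and 2882 (Dex difference -0.18 ± 0.05, adjusted p = 0.0137), and Pfkfb1, the liver and muscle gene, 336.2 and 350.4, then 273.1 and 282.2, then 336.7 and 341.3 (-0.31 ± 0.09, adjusted p = 0.0172). These smaller falls were not called when libraries were scaled by total counts, with adjusted p of 0.445 for Pfkfb2 and 0.12 for Pfkfb1. Their adjusted p over 14 other fits ranged from 0.00237 to 0.445 and from 0.0103 to 0.12.

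Both aldolases rose. Aldoa, which supplied nearly all aldolase RNA here, had 28340 and 29030 in untreated, 36870 and 34320 in Dex, and 35250 and 34580 in Dex plus GW7647 libraries (Dex difference 0.31 ± 0.05, adjusted p = 0.000446). Aldoc, the brain-type aldolase, started low at 255.5 and 272.9, reached 921.3 and 815.7 with Dex and stood at 656.2 and 646 with both drugs. Its Dex difference of 1.72 ± 0.09 (3.29-fold, adjusted p = 2.06e-07) was the largest rise of the 34 genes tested, and the 3 groups did not overlap.

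In lower glycolysis 2 of 4 genes between aldolase and enolase were called higher. Pgam1, the phosphoglycerate mutase of most tissues, had 3966 and 3768 in untreated, 7594 and 8953 in Dex, and 7621 and 8094 in Dex plus GW7647 libraries (Dex difference 1.10 ± 0.08, 2.14-fold, adjusted p = 1.51e-06). Pgk1, the first ATP-forming step, averaged 5263 ± 356 (SD, n = 2) in untreated and 6846 ± 170 in Dex libraries (0.38 ± 0.06, adjusted p = 0.000272). Tpi1, triose phosphate isomerase, averaged 18440 and 18280 in these groups and was not called. Gapdh, often used as a reference gene, varied widely between replicates, with 3532 and 2598 in untreated, 2828 and 3825 in Dex and 3303 and 3890 in Dex plus GW7647 libraries. Its SE of 0.16 exceeded its Dex difference of 0.12, and as stated above most of its sequence also occurs in other genes.

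The bisphosphoglycerate shunt showed the deepest fall. Bpgm had 27440 and 25890 in untreated, 9863 and 9901 in Dex, and 10510 and 10610 in Dex plus GW7647 libraries. Every treated library was below every untreated one, and the Dex difference of -1.43 ± 0.05 (0.371 times, adjusted p = 1.09e-08) was the lowest of the 34 genes. It fell together with the 11 markers of maturing red cells, whose median log2 difference was -1.22, with -1.59 for Hemgn.

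**Figure D2:**
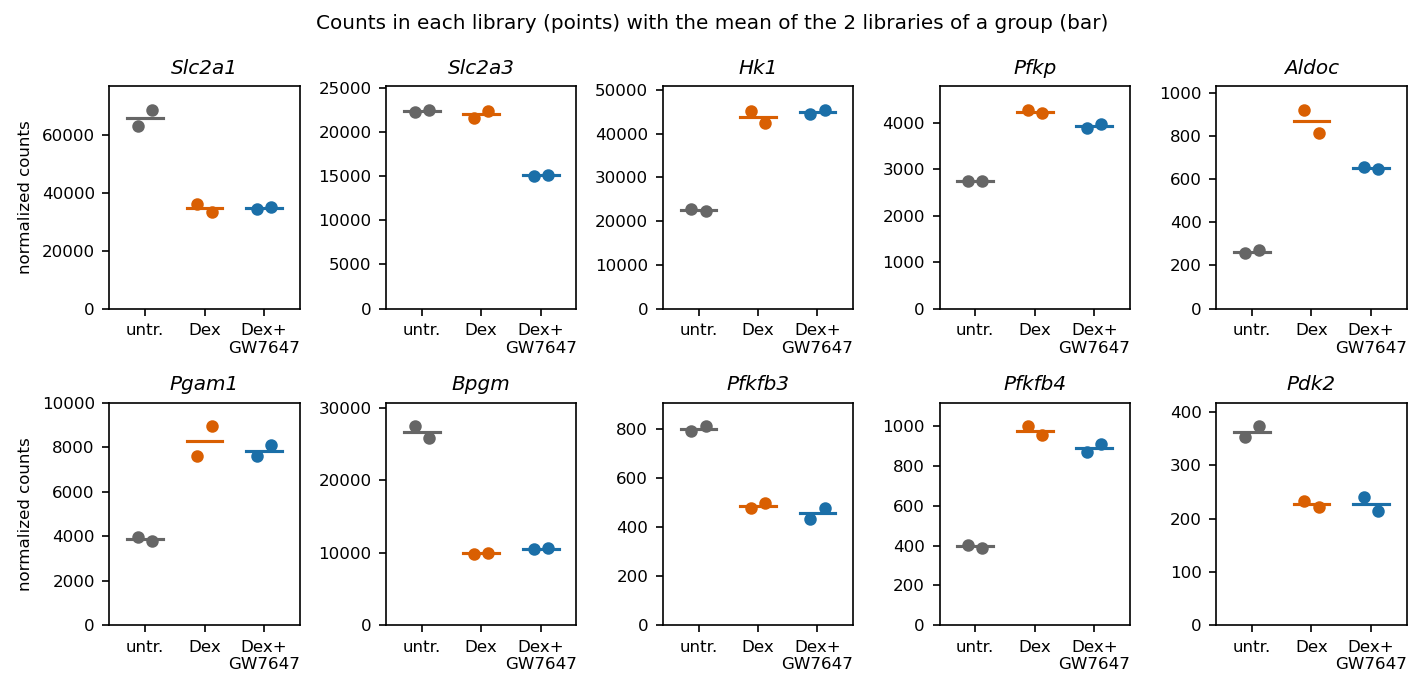
Normalized counts (y axis, starting at 0) in each library of the untreated, Dex and Dex plus GW7647 groups for 10 genes; points are libraries and bars the mean of the 2 libraries. Both treated groups sit together for Slc2a1, Hk1, Bpgm and Pfkfb4, while Slc2a3 falls only in the libraries with both drugs and Aldoc stands at 3 separate levels.

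The last steps to pyruvate rose by smaller amounts. Eno1, the common enolase, averaged 17290 ± 156 (SD, n = 2) in untreated and 20930 ± 363 in Dex libraries (0.28 ± 0.05, adjusted p = 0.000806), while the muscle enolase Eno3 was low, at 464 and 500.7, and not called (0.11 ± 0.08). Pkm, which gives the M1 and M2 pyruvate kinases that these gene-level counts do not separate, averaged 38160 ± 1400 and 51990 ± 3120 (0.45 ± 0.05, adjusted p = 7.54e-05). Pklr, the red cell and liver pyruvate kinase, averaged 15340 ± 184 and 17220 ± 285 (0.17 ± 0.05, adjusted p = 0.0124), which did not hold once untreated replicate 1 was left out (adjusted p = 0.0633; range over 14 other fits 0.000314 to 0.0633).

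RNA of the lactate genes moved both ways. Ldha, the lactate dehydrogenase subunit that favors lactate formation, averaged 41370 ± 601 (SD, n = 2) in untreated and 49410 ± 146 in Dex libraries (0.26 ± 0.04, adjusted p = 0.000598). Ldhb, the heart-type subunit, was scarce, at 58.35 ± 5.66 and 24.53 ± 0.221 (-1.24 ± 0.22, adjusted p = 0.00111). From 98 and 58 raw counts in the 2 groups, its ratio per total counts was 0.461 with a 95% interval of 0.328 to 0.645 that covers counting error only. The lactate carriers diverged. Slc16a1 (MCT1) was lower, with 7811 ± 197 and 6097 ± 115 (-0.36 ± 0.05, adjusted p = 0.000111), and Slc16a3 (MCT4), the carrier typical of strongly glycolytic cells, was higher, with 2806 ± 128 and 3191 ± 9.98 (0.19 ± 0.06, adjusted p = 0.0209), a call that likewise needed that library (adjusted p = 0.14 without it; range over 14 other fits 0.000911 to 0.14).

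The pyruvate dehydrogenase kinases, which phosphorylate and switch off the entry of pyruvate into the citric acid cycle, each behaved differently. Pdk1 had 3065 and 2964 in untreated, 2995 and 3026 in Dex, and 3598 and 3522 in Dex plus GW7647 libraries, so that untreated and Dex overlapped (0.00 ± 0.05, adjusted p = 0.978). Pdk2 had 353.3 and 373.5, then 233.8 and 221.3, then 240.1 and 214.9, below the untreated pair in all treated libraries (-0.67 ± 0.10, adjusted p = 0.000399). Pdk3 had 2386 and 2399, then 3037 and 3078, then 2927 and 2927, above the untreated pair (0.35 ± 0.05, adjusted p = 0.000114). The raw counts of Pdk4 were 5 and 2, 9 and 6, and 9 and 6, and its ratio of Dex to untreated per total counts was 1.67 with a 95% counting interval of 0.641 to 4.84, so a difference was not detectable at this depth.

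Of the 4 pentose phosphate genes, 1 was called with Dex. Pgd, the second NADPH-forming dehydrogenase, averaged 13360 ± 327 (SD, n = 2) in untreated and 10540 ± 220 in Dex libraries (-0.34 ± 0.04, adjusted p = 0.000134). G6pdx, the first and rate-limiting dehydrogenase, averaged 8951 and 9091, Tkt (transketolase) 34010 and 34780, and Taldo1 (transaldolase) 30080 and 29490. Their log2 differences lay between -0.03 and 0.03 and their libraries overlapped between the groups. Under scaling by total counts the differences of G6pdx (0.15, adjusted p = 0.0193) and Tkt (0.16, adjusted p = 0.0162) were called, close to the shift of 0.14 of all genes under that scaling.

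Isoenzymes were compared within a family on counts divided by exon length, taken from the GENCODE M21 exons of build GRCm38. No test was run on these shares. Slc2a1 held 85.4% and 86.3% of the Slc2a1 and Slc2a3 sum in the untreated libraries, 77.5% and 75.5% with Dex, and 82.5% and 82.8% with both drugs, and the groups did not overlap. Among the PFKFB genes, Pfkfb4 went from 11.8% and 11.6% to 29.1% and 27.8%, and to 25.7% and 25.5%, while Pfkfb3 went from 15% and 15.6% to 8.93% and 9.27%, and to 8.18% and 8.64%. Pfkfb2 stayed the largest of the 4, at 60.7%, 52.7% and 54.2% on average. Hk1 made up 90.8%, 95% and 95.9% of the 2 hexokinases. Pklr, the red cell enzyme, held 38.3% of pyruvate kinase in untreated, 33.9% in Dex and 36% in Dex plus GW7647 cells, and Slc16a3 held 23%, 30.3% and 27.3% of the lactate carriers. Pfkp rose from 10.5% to 14% of the phosphofructokinases and stood at 11.6% with both drugs. Aldoc remained minor, at 0.815%, 2.13% and 1.64% of aldolase.

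The choice of length matters for these levels. With coding length in place of exon length, Slc2a1 held 74.6%, 61.2% and 69.7%, and Pfkfb4 9.93%, 24.8% and 22.4%, with the same order of groups. The order of genes within a family depended on it in several places. In untreated cells Pdk3 was the leading kinase by exon length (65%, against 26.9% for Pdk1), and Pdk1 by coding length (51% against 42.4%), whereas in Dex cells Pdk3 led by coding length too (49.5% against 46.6%). For the phosphofructokinases of untreated cells, Pfkm led by exon length (58.8% against 30.7% for Pfkl) and Pfkl narrowly by coding length (37.8% against 36.3%), whereas with both drugs Pfkm led by coding length as well (36.4% against 35.2%). Pfkfb1 of untreated cells was above Pfkfb4 by exon length (12.3% against 11.7%) and below it by coding length (8.58% against 9.93%). Among all 35 genes, Slc2a1 had the highest level in untreated cells, at 432 counts per exon kb after scaling by library size, followed by Taldo1 (319), Ldha (288), Aldoa (227), Pkm (176) and Bpgm (171). In Dex cells Slc2a1 stood at 228 and Bpgm at 63.5, below Ldha (344), Taldo1 (313), Aldoa (282) and Pkm (240). Gapdh, at 17.1 in untreated cells, ranked 21 of 35 by exon length and 19 by coding length. As 90.4% of its 50-base windows also occurred in other genes, its level and rank are uncertain. The same holds for the other genes named above with many shared windows, among them Pkm.

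**Figure D3:**
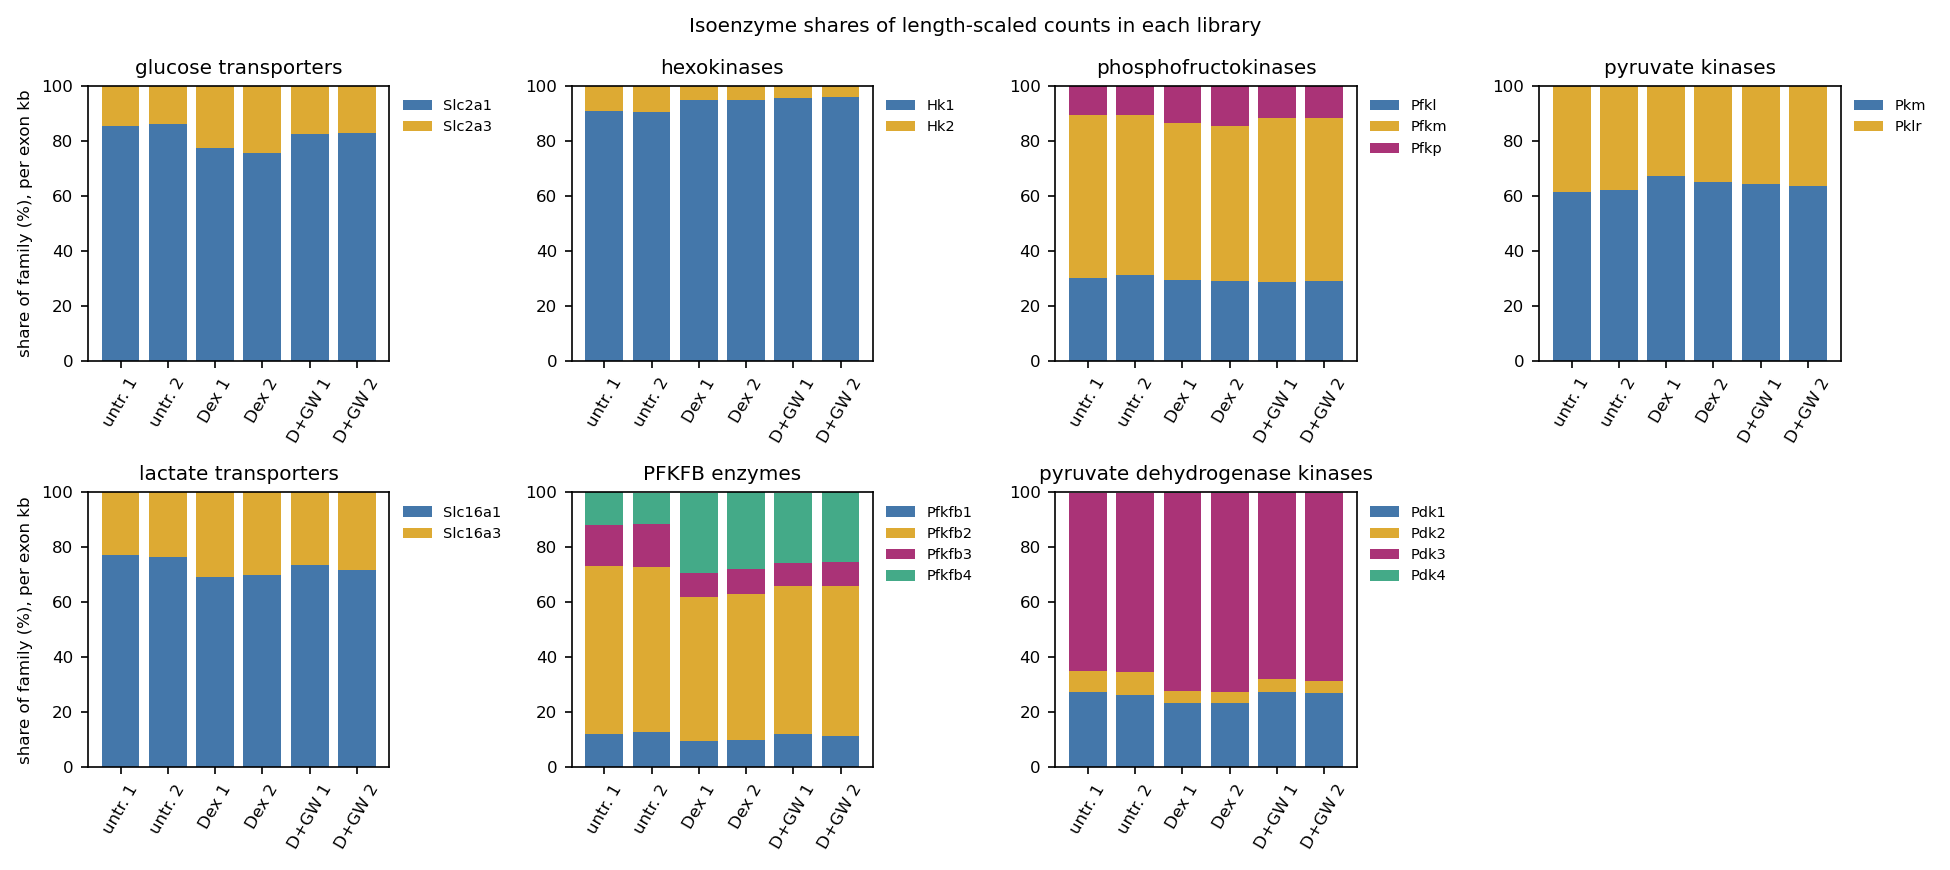
Share of each isoenzyme (y axis, percent of the family's counts per exon kb) in each of the 6 libraries (x axis; untr., untreated; D+GW, Dex plus GW7647) for 7 families, as stacked bars. Pfkfb4 grows from under 12% to over 25% in the treated libraries and the part of Slc2a3 is largest in the Dex libraries.

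Between Dex plus GW7647 and Dex few glucose genes differed. Among 34 tested, 2 were called higher (Pfkm and Pdk1), 3 lower (Slc2a3, Hk2 and Aldoc) and 29 were not called. This is 14.7% called, beside 9.73% of all tested genes, of which 2.15% were higher and 7.58% lower, and none of the 34 differed by 1.5-fold. The median difference was -0.02, beside 0.00 over all genes. Both libraries with GW7647 were above both Dex libraries for 10 of the 35 genes and below for 12. For this separation, too, no share over all genes was computed, and most of these genes were not called.

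The transporter Slc2a3 showed the largest of these called differences and the smallest adjusted p. Its fall from 21640 and 22440 to 15090 and 15120 was a log2 difference of -0.54 ± 0.04 (0.686 times, adjusted p = 4.93e-05), and it was called in 14 of 14 other fits (adjusted p from 2.29e-26 to 0.00193). Slc2a1 did not move with it, at 34750 ± 1940 (SD, n = 2) in Dex and 34750 ± 548 in Dex plus GW7647 cells (0.00 ± 0.06, adjusted p = 0.999). In the authors' deposited table the log2 difference of Slc2a3 was likewise -0.54, with an adjusted p of 6.06e-16.

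The other 4 calls were of smaller differences. Aldoc went from 868.5 ± 74.6 to 651.1 ± 7.18 (SD, n = 2; -0.42 ± 0.08, adjusted p = 0.00867), and Pdk1 from 3010 ± 21.5 to 3560 ± 53.7 (0.24 ± 0.05, adjusted p = 0.00873). In neither gene did the 2 groups overlap. Both calls were lost when either Dex plus GW7647 library was left out, with adjusted p of 0.0767 and 0.0817 for Aldoc (2.52e-05 to 0.0817 over 14 other fits) and 0.123 and 0.0754 for Pdk1 (0.000884 to 0.123). Hk2 went from 1609 ± 81.9 to 1361 ± 1.03 (-0.24 ± 0.06, adjusted p = 0.0251) and was called in 9 of 14 other fits (0.00444 to 0.179). Pfkm went from 4277 ± 292 to 5006 ± 18.6 (0.23 ± 0.05, adjusted p = 0.0274) and was called in 10 of 14 (0.00181 to 0.183). When either Dex plus GW7647 library was left out, only Slc2a3 of the glucose genes stayed called, and the calls over all genes fell as well. Without Dex replicate 1, more glucose genes were called higher and fewer lower, while both counts over all genes fell.

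Most genes that had moved with Dex were not called here. The log2 differences of these genes between the 2 drug groups ran from -0.46 for the scarce Ldhb (SE 0.27, adjusted p = 0.36) to 0.29 for Pfkfb1. Those of Bpgm, Hk1, Gpi1, Pgk1, Pgam1, Pgd and Pdk2 lay from -0.07 to 0.10. Pfkfb4 (-0.14), Eno1 (-0.13) and Pfkp (-0.11) were lower in each GW7647 library than in each Dex library. Among genes short of the threshold, Slc16a1 had 0.16 ± 0.05 (adjusted p = 0.0623) and Pfkfb1 0.29 ± 0.09 (adjusted p = 0.0767), both higher in each GW7647 library than in each Dex library. Pkm had -0.15 ± 0.05 (adjusted p = 0.109) and was called lower without Dex replicate 2 (adjusted p = 0.0247), by DESeq2 (0.046) and with genes of any count in the fit (0.0211). Several markers of other cells fell in the same comparison, in which 7.58% of all tested genes were called lower. Called lower were 7 of 8 megakaryocyte, 6 of 7 tested mast cell and basophil, and 6 of 8 granulocyte genes. Fewer were lower among tested monocyte and macrophage (1 of 6), hepatoblast (1 of 4), endothelial and stromal (1 of 2) and lymphoid genes (0 of 1). Of 11 maturing red cell markers 2 were called higher and 1 lower, and of 6 progenitor genes 0 were called. The part of these markers in the results was not tested.

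Set against untreated cells, both drugs together gave 17 glucose genes called higher, 10 lower and 7 not called, or 79.4% of 34. Over all tested genes 49.7% were called, 24.7% higher and 25.1% lower, and the medians were 0.14 and 0.02. This comparison uses the untreated libraries of the first and the treated libraries of the second, so it is no independent repeat of either. Total count scaling gave 20 higher and 7 lower, beside 5480 and 2719 over all genes, whose median was then 0.14. Hk1 (1.0 ± 0.05), Aldoc (1.30 ± 0.09), Pgam1 (1.02 ± 0.08) and Pfkfb4 (1.17 ± 0.07) were higher by at least 1.5-fold, and Slc2a1 (-0.92 ± 0.06), Bpgm (-1.34 ± 0.05), Pfkfb3 (-0.82 ± 0.08), Pdk2 (-0.67 ± 0.11) and Ldhb (-1.70 ± 0.25) lower.

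A few genes were called here and not with Dex alone. Pfkl (0.28 ± 0.06, adjusted p = 0.0035) and Pdk1 (0.24 ± 0.05, adjusted p = 0.00176) were higher, and Slc2a3 (-0.57 ± 0.04, adjusted p = 3.33e-06) and Hk2 (-0.24 ± 0.06, adjusted p = 0.0067) were lower. Slc2a3, Pfkl and Pdk1 kept these calls in 14 of 14 other fits. Hk2 kept its call in 11 of 14 (adjusted p from 0.00212 to 0.115) and lost it with total count scaling (0.115) and without either Dex plus GW7647 library (0.0522 and 0.0515). The calls of G6pdx (0.13 ± 0.05, adjusted p = 0.0462, 6 of 14 fits called, 0.00133 to 0.251) and Taldo1 (-0.16 ± 0.05, adjusted p = 0.0274, 9 of 14 fits called, 0.0075 to 0.57) depended on the settings and libraries. Pfkl was itself called with Dex in 4 of 14 other fits, and it was not called between the drug groups (0.14 ± 0.06, adjusted p = 0.205). Called with Dex alone and not with both drugs were Slc16a3 (0.13 ± 0.06, adjusted p = 0.0903), Pfkfb1 (-0.02 ± 0.09, 0.882) and Pfkfb2 (-0.12 ± 0.05, 0.0708). None of these was called between the drug groups. Tpi1, Gapdh, Eno3 and Tkt were not called in any of the 3 comparisons. In all, 12 genes were higher and 7 lower with Dex as well as with both drugs while not called between the drug groups.

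Genes around the pathway were read from 7 further lists. Among the 8 glycogen genes, 4 were called higher with Dex and 0 lower, at a median log2 difference of 0.40. This is 50% called, near the 51.6% of all tested genes, and the share in the other 6 lists ran from 57.1% to 80% of 5 to 12 genes tested. Pygl, liver glycogen phosphorylase, rose from 465.3 to 1912 on average (2.04 ± 0.08, 4.11-fold, adjusted p = 3.15e-08) and Gbe1, the branching enzyme, from 253.8 to 586.1 (1.21 ± 0.08, adjusted p = 1.11e-06). The summed glycogen list was at 7838 and 7880 in untreated, 10940 and 11270 in Dex and 11140 and 11080 in Dex plus GW7647 libraries, so both treated groups were clear of the untreated one.

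Of 5 tested gluconeogenesis and sugar phosphatase genes (9 listed), 1 was called higher and 3 lower with Dex. Pcx, pyruvate carboxylase, went from 3935 to 1614 (-1.28 ± 0.06, adjusted p = 7.97e-08) and Pck2, the mitochondrial phosphoenolpyruvate carboxykinase, from 4126 to 2343 (-0.82 ± 0.07, adjusted p = 5.96e-06). With GW7647 Pck2 was higher again than with Dex, at 3262 (0.48 ± 0.07, adjusted p = 0.00188). Minpp1, a phosphatase of inositol phosphates and bisphosphoglycerate, went from 5131 to 6993 (0.45 ± 0.05, adjusted p = 3.03e-05). The pyruvate dehydrogenase complex and pyruvate carrier genes gave 5 higher and 1 lower of 9 with Dex, with differences of 0.40 ± 0.07 for Mpc2, 0.29 ± 0.06 for Pdhx and 0.46 ± 0.10 for the phosphatase Pdp1. Mpc2, a subunit of the mitochondrial pyruvate carrier, was lower with GW7647 than with Dex (-0.32 ± 0.07, adjusted p = 0.0132).

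Among the regulators, 3 were called higher and 1 lower of 7 tested. Txnip, which restrains glucose uptake and is itself a glucose-responsive gene, went from 2221 to 5190 with Dex (1.22 ± 0.06, adjusted p = 9.85e-08) and stood at 3384 with both drugs (-0.62 ± 0.06 against Dex, adjusted p = 9.67e-05). Myc, an activator of glycolytic genes, was at 9846 and 8081 (-0.29 ± 0.05, adjusted p = 0.00103), and Mlxip, a glucose-sensing transcription factor, at 1694 and 2038 (0.27 ± 0.05, adjusted p = 0.00197). Of these 3 genes, 1 (Txnip) was called between the drug groups.

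Other transporters gave 2 higher and 3 lower of 7 tested (13 listed). Slc2a4, the insulin-responsive carrier GLUT4, went from 192.3 to 46.26 (-2.05 ± 0.16, adjusted p = 3.02e-06), and Slc2a9, a urate and hexose carrier, from 98.01 to 217.1 (1.15 ± 0.13, adjusted p = 3.75e-05). Emb, a chaperone of lactate carriers, went from 636.2 to 366.3 (-0.80 ± 0.09, adjusted p = 6.68e-05) and to 264.4 with both drugs (-0.47 ± 0.10 against Dex, adjusted p = 0.0172). Of 12 tested further isoenzymes and entry enzymes (17 listed), 4 were higher and 3 lower. Hkdc1, a hexokinase-like gene, had 3 raw counts in the untreated and 164 in the Dex group, a ratio per total counts of 42.6 with a 95% counting interval of 14.3 to 209. Hk3, the hexokinase of myeloid cells, went from 122.3 to 35.31 (-1.78 ± 0.18, adjusted p = 2.08e-05), beside the fall of the granulocyte genes given above, and Pgm1, which links glycogen to glycolysis, from 1106 to 1869 (0.76 ± 0.06, adjusted p = 3.66e-06). Adpgk, an ADP-dependent glucokinase, was not called with Dex and was higher with GW7647 than with Dex (0.22 ± 0.05, adjusted p = 0.0197). In the same list and comparison 3 genes, named after their values were seen, were called lower: Hk3 (-0.94 ± 0.24, adjusted p = 0.0378), the neuronal enolase Eno2 (-0.88 ± 0.24, adjusted p = 0.0474) and the galactokinase Galk1 (-0.30 ± 0.08, adjusted p = 0.036). Other pentose and ribose phosphate enzymes gave 2 higher and 2 lower of 7 tested, within -0.32 and 0.40, led by Rpe (0.40 ± 0.06), H6pd (-0.32 ± 0.06) and Prps1 (-0.25 ± 0.05), and 0 of 7 were called between the drug groups.

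**Figure D4:**
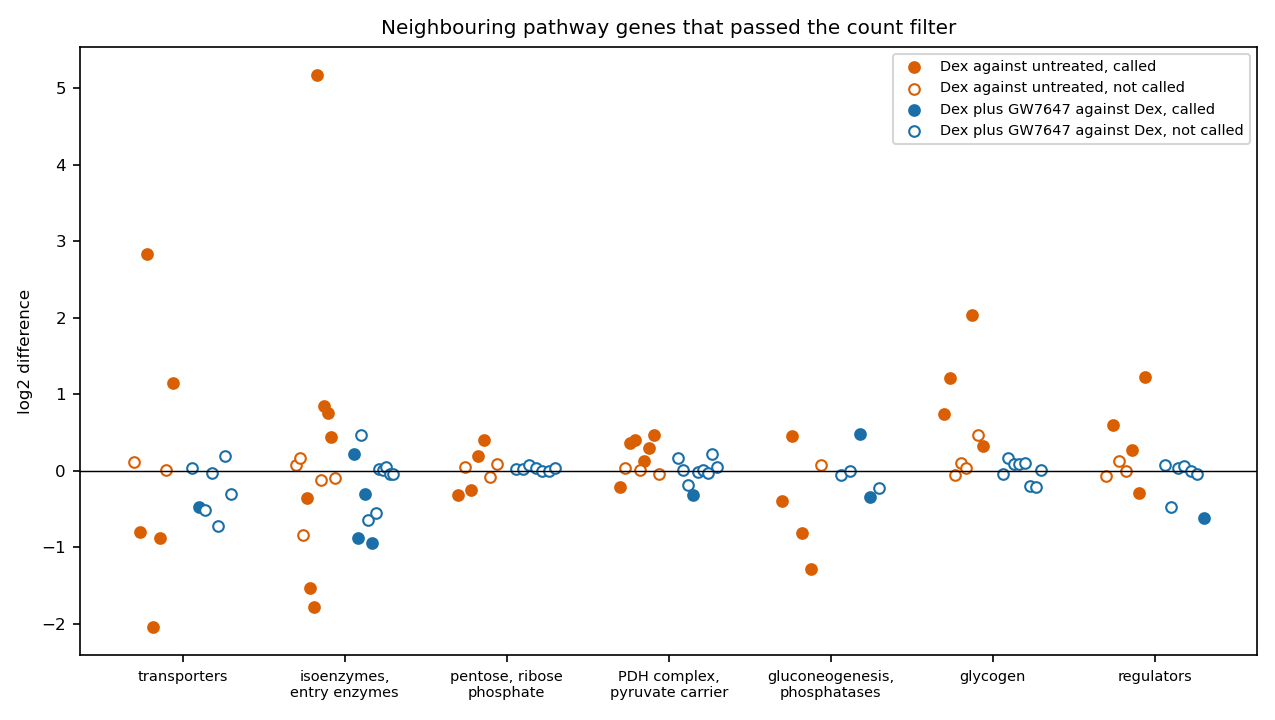
Log2 difference (y axis) of each gene of the 7 neighboring lists that passed the count filter, for Dex against untreated (orange) and Dex plus GW7647 against Dex (blue); filled points were called, open ones were not. The glycogen list has called points only above 0 with Dex, and the highest point is Hkdc1, whose fitted value rests on 3 counts in the untreated libraries.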

How the data were processed

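Per the submitters' processing notes, the tools were TopHat 1.4.1, HTSeq and DESeq and the builds NCBIM37 and mm9. Strand handling and annotation release are not given in the sources used here. The authors deposited 2 tables of whole-number read counts per Ensembl gene, with their fold ratio of group means and their adjusted p-value; the counts of the Dex plus GW7647 libraries were identical in both tables. Symbols and lengths came from GENCODE M21 (GRCm38), with a symbol for 87.45% of genes; promoters came from RefSeq. No coordinates of the counted genes are given.

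For the tests, edgeR 4.0.16 (R 4.3.3) was run on the counts (filterByExpr with a minimum count of 10, TMM, 1 quasi-likelihood fit of all 6 libraries without covariates, threshold 0.05). The 14125 genes kept held 99.971% of counts. The procedure was also run on simulated counts in which every gene had the same spread between replicates beyond sampling noise. Spread differed between genes in the real libraries, so that run does not measure the rate of false calls here. Alternatives were RLE and total count scaling, DESeq2 1.42.0, 2 other filters, 4-library fits, a replicate block, each library left out and the authors' deposited results. The members and all gene lists were chosen with earlier results of these data known. Per-library values were given for genes called at 1.5-fold or more with a mean of at least 50 and for their isoenzymes, and from each further list up to 3 called genes with the smallest p with Dex and 1 with GW7647. Replicates differed beyond sampling noise (chi-square per degree of freedom 7.99, 19.3 and 3.67). Protein sequences were not used here. Some genes of the further lists are not reported here by name.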

Additional observations from a re-analysis of the deposited data

How the results depend on the processing

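Over all settings run, 23 of 34 glucose genes kept their side of the threshold with Dex, 26 between the drug groups and 23 with both drugs against untreated cells. These counts include genes that were not called in any fit. Of the genes called between the drug groups, only Slc2a3 kept its call in every fit. The same share over all genes was not computed. Aldoc, Pgam1, Pfkfb4, Hk1, Pfkp, Slc2a1, Bpgm, Pfkfb3, Pdk2 and Ldhb kept their Dex call in every fit that gave a value. With total count scaling, Pdk1 turned from 0.00 to 0.13 with Dex (adjusted p = 0.0396, with 0.0396 to 0.998 over 14 other fits), in a fit whose median over all genes was 0.14. With a replicate block, the glucose genes called between the drug groups went from 2 to 1 higher and from 3 to 2 lower. Over all genes these counts went from 303 to 154 and from 1071 to 844. With Dex, 14 glucose genes were higher and 9 lower, beside 3358 and 3466 over all genes. When 1 library was left out, the calls over all genes shifted as well in each comparison. The ranges of the glucose genes that follow are therefore no property of these genes alone. Leaving out 1 library at a time, the count between the drug groups ranged from 0 to 4 higher and from 1 to 4 lower, with Dex from 12 to 16 higher and 8 to 9 lower, and with both drugs from 14 to 18 higher and 8 to 11 lower; a lone library was assumed to vary like the other groups.

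Deviations of libraries with the same replicate number correlated at -0.212 (untreated and Dex), -0.0461 (untreated and both drugs) and 0.149 (Dex and both drugs), so the numbers were not taken to pair the samples. A crossed replicate block for Dex, chosen after seeing the data, gave 17 higher and 9 lower, beside 4230 and 4263 over all genes. The authors' deposited table gave 2 higher and 2 lower between the drug groups, beside 171 and 757 over all genes. Promoter shares over 250 bases were 72.7% and 38.6% for the hypoxia core. Depth limited Pdk4 and Ldhb.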
